A study of Caenorhabditis elegans with 11 samples.

Results

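A set of 10 molecular chaperone genes of Caenorhabditis elegans is described here across total, monosome and polysome RNA of nematodes with and without silencing of xpo-1. They were taken by name as the best known folding factors of 3 compartments, and all 10 were found among the 46756 genes counted. The cytosol contributed 5 genes (hsp-1, hsp-70, hsp-90, hsp-110 and stip-1), the endoplasmic reticulum (ER) 3 genes (hsp-3, hsp-4 and enpl-1) and the mitochondria 2 genes (hsp-6 and hsp-60). The rule for the choice used no measured value, though earlier results of these data were known when it was made.

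The nematodes were wild type (N2 Bristol). The xpo-1 RNAi groups ate Escherichia coli HT115 that made double-stranded RNA against xpo-1, which encodes the nuclear export receptor exportin 1. The control groups ate HT115 carrying the empty vector L4440. Feeding started on day 1 of adulthood and lasted 96 hours at 20 °C, so every group was of day 5 adults. Whole animals were lysed, a portion of the lysate gave total RNA, and a sucrose gradient of the remainder gave monosome RNA (transcripts with 1 ribosome) and polysome RNA (transcripts with more). Total RNA was sequenced in 2 xpo-1 RNAi and 2 control libraries, monosome RNA in 1 xpo-1 RNAi and 2 control libraries, and polysome RNA in 2 xpo-1 RNAi and 2 control libraries. The methods describe biological duplicates, and each library pooled many animals. Because the 3 RNA kinds came from shared lysates, they are not independent samples, and with whole animals fewer cells of a type and less RNA per cell cannot be told apart.

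Chaperones bind proteins that are unfolded or only partly folded and keep them from aggregating. Hsp70 proteins bind short exposed stretches in a cycle driven by ATP, Hsp90 proteins act on clients that are nearly folded, and Hsp60 encloses its client in a barrel. Each compartment has its own members and its own stress response: in C. elegans the transcription factor HSF-1 drives cytosolic chaperone genes during heat shock, IRE-1 and XBP-1 drive hsp-4 during ER stress, and ATFS-1 drives hsp-6 and hsp-60 during mitochondrial stress.

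The libraries held 15589628 to 21828657 counts. The silenced gene itself was low in every xpo-1 RNAi library, at 36.5 and 38.3 CPM (counts scaled to library size) in xpo-1 RNAi total RNA against 312 and 254 CPM in control total RNA, and at 21.8 CPM in both xpo-1 RNAi polysome libraries against 199 and 126 CPM in control polysome RNA. Germline, oocyte, intestine, muscle and neuron markers were detected in every group. Summed over 35 sperm genes, the level was 17.7 and 20.7 CPM in xpo-1 RNAi total RNA against 395 and 1768 CPM in control total RNA, and over 3 adult cuticle collagens it was 380 and 441 CPM against 1553 and 2588 CPM. All 3 muscle markers were lower in total RNA (median log2 fold change -0.86), with summed levels of 727 and 922 CPM in xpo-1 RNAi against 1000.4 and 1920 CPM in control, and 0 of them were called in polysome RNA. Of 5 early embryo markers tested, 3 were lower in total RNA (median -2.03) and 4 in polysome RNA. Eggshell markers went the other way, with 1 of 7 higher in total RNA and 4 of 7 in polysome RNA, and 0 lower. Their summed level was 20507 and 23242 CPM in xpo-1 RNAi polysome RNA against 12786 and 7685 CPM in control. Intestine markers were mixed, with 1 higher and 1 lower of 3 in each of these RNA kinds. Of 4 germline markers 1 was higher and 1 lower in total RNA, and 1 higher and 0 lower in polysome RNA. The part of these markers in the chaperone results was not tested.

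Together the chaperone genes took 0.554% and 0.584% of all counts in xpo-1 RNAi total RNA, against 0.934% and 0.936% in control total RNA. In polysome RNA their share was 0.522% and 0.562% with xpo-1 RNAi, against 0.633% and 0.683% in control. Counting error was small beside these gaps, since the widest 95% Wilson interval around any of the 8 shares ran from 0.930% to 0.939%. hsp-1 and hsp-90 made up most of the set, with 67.8% and 64.3% of its counts in xpo-1 RNAi total RNA and 73.7% and 71.8% in control total RNA. In polysome RNA they made up 53.2% and 55.7% of it with xpo-1 RNAi, against 69.3% and 71.6% in control.

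Per kilobase of exon, hsp-1 had the highest level and hsp-70 the lowest in both total RNA groups. In xpo-1 RNAi total RNA the mean level was 857 CPM per kb for hsp-1, 708 for hsp-90, 199.7 for hsp-6, 156 for hsp-3, 131 for enpl-1, 123 for hsp-4, 71.4 for hsp-110, 48.1 for hsp-60, 13.9 for stip-1 and 2.70 for hsp-70. Only enpl-1 and hsp-4 had overlapping libraries among neighbours in that order. In control total RNA the order was hsp-1 at 2089 CPM per kb, hsp-90 at 1370, hsp-6 at 294, hsp-3 at 268, hsp-60 at 242, hsp-4 at 151, hsp-110 at 126, enpl-1 at 122, stip-1 at 8.31 and hsp-70 at 0.599. There the libraries of hsp-6 and hsp-3, and those of hsp-3 and hsp-60, overlapped. hsp-60 thus stood below enpl-1, hsp-4 and hsp-110 in xpo-1 RNAi total RNA, and above all of them in control total RNA.

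**Figure D1:**
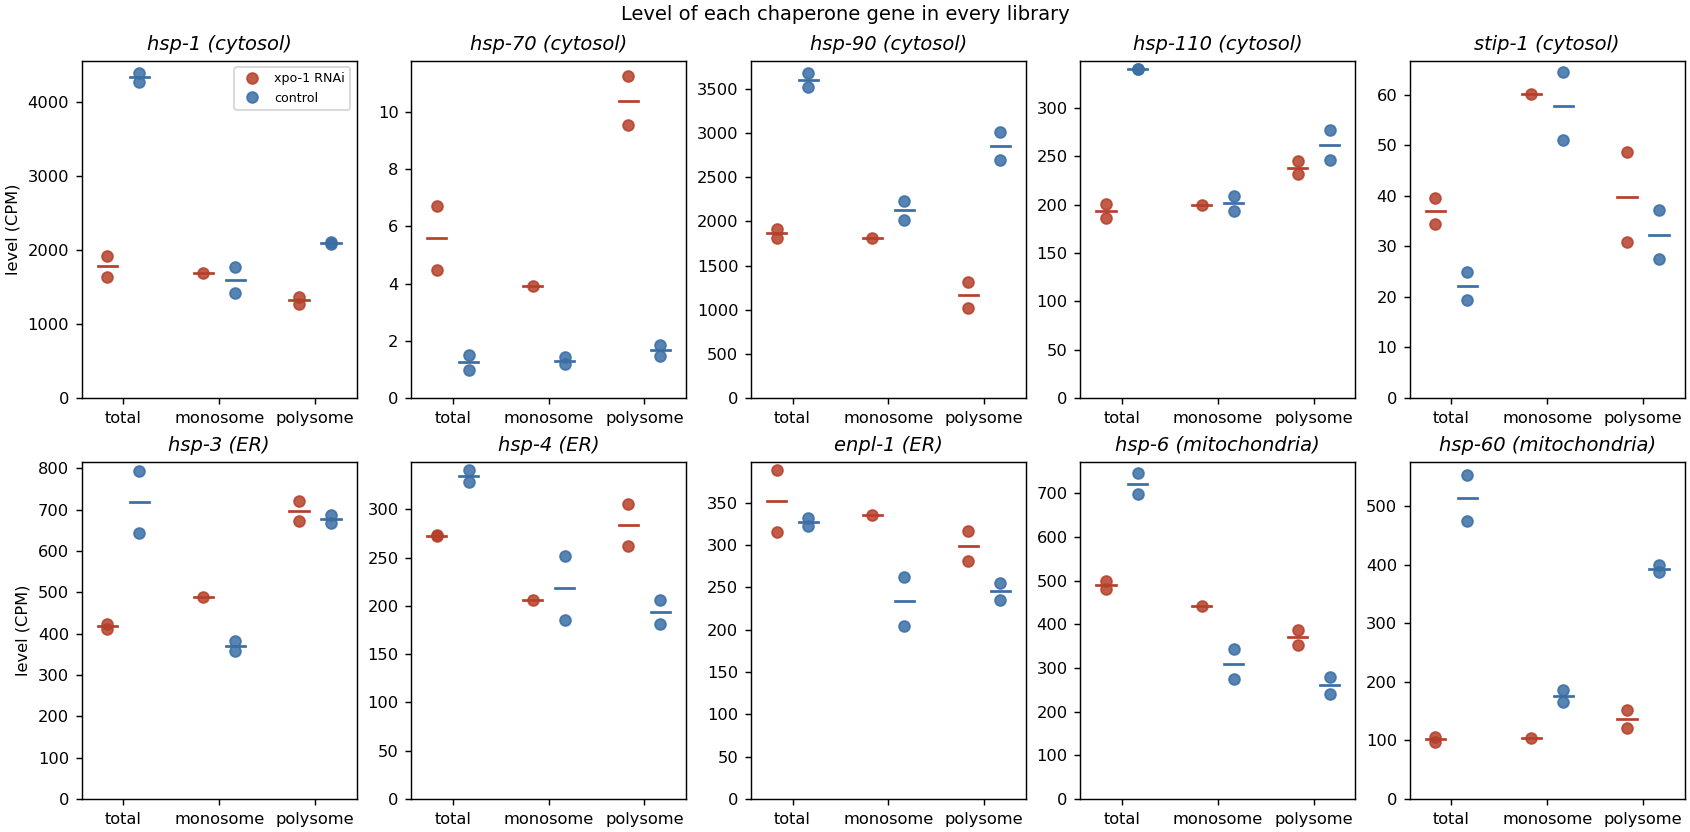
Level of each chaperone gene in CPM (vertical axes, linear, each with its own range) in total, monosome and polysome RNA. Every point is 1 library, red for xpo-1 RNAi and blue for control, and each short line is the mean of its group. The xpo-1 RNAi libraries of hsp-60 lay below control in all 3 RNA kinds, and those of hsp-70 lay above.

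In total RNA, xpo-1 RNAi lowered the abundant cytosolic chaperones and hsp-60 while the scarce heat-inducible hsp-70 rose. Of the 10 genes, 7 were called, 2 higher (hsp-70 and stip-1) and 5 lower (hsp-1, hsp-90, hsp-110, hsp-3 and hsp-60). Called means an adjusted p under 0.05 in edgeR's quasi-likelihood test over all genes and a fold change over 1.5. Of all 13795 genes tested, 28.9% were called, 12% higher and 16.9% lower. The median log2 fold change of the 10 genes was -0.69, beside 0.01 for all genes tested. Without xpo-1 RNAi total replicate 2, hsp-70, stip-1 and hsp-3 no longer passed. Fewer of all genes were called in that fit too, and the median log2 fold change of the 10 genes was again -0.69.

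hsp-1 is the constitutive cytosolic Hsp70 (WBGene00002005, WBcel235 chromosome IV, 17278959 to 17281330, plus strand). It had 1917 and 1636 CPM in xpo-1 RNAi total RNA against 4269 and 4390 CPM in control total RNA, which do not overlap. The level was 2.47-fold lower (log2 fold change -1.31 ± 0.21 SE, edgeR adjusted p = 0.00158). Among polysomes hsp-1 had 1271 and 1368 CPM with xpo-1 RNAi against 2071 and 2097 CPM in control, again without overlap. The estimate was nearer to 0 (-0.73 ± 0.15, edgeR adjusted p = 0.00658), and without xpo-1 RNAi polysome replicate 1 its adjusted p was 0.0621.

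hsp-90, also known as daf-21, encodes the cytosolic Hsp90 (WBGene00000915, chromosome V, 14684918 to 14688543, plus strand). Its level was 1914 and 1815 CPM in xpo-1 RNAi total RNA against 3686 and 3527 CPM in control total RNA. In polysome RNA it was 1023 and 1317 CPM with xpo-1 RNAi against 2694 and 3010 CPM in control. Neither RNA kind showed an overlap. The log2 fold change was -0.97 ± 0.20 in total RNA (edgeR adjusted p = 0.00560) and -1.36 ± 0.18 in polysome RNA (edgeR adjusted p = 0.000960), and hsp-90 was the only gene called lower in both whose estimate was farther from 0 in polysome RNA, a difference that did not pass (interaction -0.34 ± 0.25).

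hsp-110 encodes the Hsp110 that exchanges nucleotide on cytosolic Hsp70 (WBGene00016250, chromosome III, 8443917 to 8446920, minus strand). It had 186 and 200.4 CPM in xpo-1 RNAi total RNA against 340.2 and 341 CPM in control total RNA, well apart. The log2 fold change was -0.84 ± 0.16 (edgeR adjusted p = 0.00399). In polysome RNA the 231.5 and 245 CPM with xpo-1 RNAi lay just under the 278 and 246 CPM in control, and the difference did not pass (-0.21 ± 0.18, edgeR adjusted p = 0.408).

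hsp-70, a heat-inducible cytosolic Hsp70 (WBGene00002026, chromosome I, 9320325 to 9322534, minus strand), was the scarcest gene of the set. It had 82 and 152 counts, or 4.49 and 6.71 CPM, in xpo-1 RNAi total RNA, against 24 and 18 counts, or 1.51 and 0.971 CPM, in control total RNA. Polysome RNA held 180 and 219 counts, or 9.54 and 11.3 CPM, with xpo-1 RNAi, against 27 and 30 counts, or 1.47 and 1.86 CPM, in control. Both pairs of groups were separate. The gene was 4.47-fold higher in total RNA (log2 fold change 2.16 ± 0.38, edgeR adjusted p = 0.00248) and 5.95-fold higher in polysome RNA (2.57 ± 0.30, edgeR adjusted p = 0.000585). Without xpo-1 RNAi total replicate 2 the adjusted p in total RNA was 0.0684. Other Hsp70 genes share stretches of its sequence, so reads of close copies may have been divided among them.

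stip-1 encodes the co-chaperone that links Hsp70 to Hsp90 (WBGene00007412, chromosome II, 10346981 to 10350007, minus strand). Its level was 34.5 and 39.6 CPM in xpo-1 RNAi total RNA against 24.9 and 19.4 CPM in control total RNA, without overlap (log2 fold change 0.73 ± 0.20, edgeR adjusted p = 0.0210). This call stood without control replicate 1 but was lost without control replicate 2, where the fold change was too small, and without either xpo-1 RNAi replicate, where the adjusted p was 0.0781 and 0.204. In polysome RNA the groups overlapped, with 48.6 and 30.9 CPM for xpo-1 RNAi and 37.2 and 27.5 CPM for control. Relative to hsp-90 and per length, stip-1 stood at 1.78% and 2.16% in xpo-1 RNAi total RNA against 0.667% and 0.543% in control total RNA.

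Of the 3 ER genes, 1 was called in total RNA and 0 in polysome RNA, beside 28.9% and 37.9% of all genes. hsp-3, a constitutive ER Hsp70 of the BiP type (WBGene00002007, chromosome X, 6089033 to 6092124, minus strand), had 423 and 412 CPM in xpo-1 RNAi total RNA against 643 and 794 CPM in control total RNA. It fell by 0.80 ± 0.19 on the log2 scale (edgeR adjusted p = 0.00920), a call lost without xpo-1 RNAi total replicate 2 (adjusted p = 0.0662). In polysome RNA its 674 and 721 CPM with xpo-1 RNAi overlapped the 688 and 669 CPM in control (log2 fold change -0.03 ± 0.16).

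hsp-4, the second BiP gene and a standard reporter of ER stress (WBGene00002008, chromosome II, 7350121 to 7352636, minus strand), had 272 and 273 CPM in xpo-1 RNAi total RNA against 341 and 328 CPM in control total RNA. The libraries were separate but the difference did not pass (-0.32 ± 0.16, edgeR adjusted p = 0.165). In polysome RNA the order was the other way, with 262 and 305 CPM for xpo-1 RNAi above 181 and 206 CPM for control, and here too the test did not pass (0.48 ± 0.20, edgeR adjusted p = 0.0849). The ratio of hsp-4 to hsp-3 per length was 77.7% and 80.1% in xpo-1 RNAi total RNA against 64.1% and 50.02% in control total RNA, and 47.0% and 51.2% in xpo-1 RNAi polysome RNA against 31.9% and 37.3% in control polysome RNA.

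enpl-1, the ER member of the Hsp90 family (WBGene00011480, chromosome IV, 11119298 to 11123155, plus strand), had 316 and 389 CPM in xpo-1 RNAi total RNA around the 323 and 332 CPM of control total RNA. Its log2 fold change was 0.08 ± 0.18 in total RNA (edgeR adjusted p = 0.754) and 0.21 ± 0.18 in polysome RNA (edgeR adjusted p = 0.386), where 316 and 282 CPM with xpo-1 RNAi stood above 256 and 235.2 CPM in control. Per length, enpl-1 reached 16.1% and 20.9% of the level of its cytosolic relative hsp-90 in xpo-1 RNAi total RNA against 8.56% and 9.20% in control total RNA.

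The mitochondrial pair separated. hsp-60, the matrix chaperonin (WBGene00002025, chromosome III, 1619742 to 1625797, plus strand), fell most of all 10 genes, while hsp-6, the matrix Hsp70 (WBGene00002010, chromosome V, 4824130 to 4826760, minus strand), was lower in total RNA and higher in polysome RNA without being called in either. hsp-60 had 106 and 97.6 CPM in xpo-1 RNAi total RNA against 474 and 553 CPM in control total RNA, a 5.12-fold lower level (log2 fold change -2.36 ± 0.18, edgeR adjusted p = 6.91e-05). In polysome RNA hsp-60 had 121 and 151 CPM with xpo-1 RNAi against 387 and 399 CPM in control, a 3.02-fold lower level (-1.60 ± 0.20, edgeR adjusted p = 0.000743). No xpo-1 RNAi library came near a control library in either RNA kind.

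hsp-6 had 481 and 499 CPM in xpo-1 RNAi total RNA against 697 and 746 CPM in control total RNA. Its edgeR adjusted p was 0.0298, but the log2 fold change of -0.58 ± 0.17 lay just short of the fold limit. It was called lower with DESeq2, with median-of-ratios scaling and where every library needed 10 counts. Without control total replicate 1 the log2 fold change was -0.67. In polysome RNA its 352 and 387 CPM with xpo-1 RNAi exceeded the 279.6 and 240.2 CPM of control (0.44 ± 0.19, edgeR adjusted p = 0.0928). Per length, hsp-60 therefore stood at 25.5% and 22.7% of hsp-6 in xpo-1 RNAi total RNA against 78.8% and 85.9% in control total RNA, and at 40.0% and 45.3% in xpo-1 RNAi polysome RNA against 161% and 192% in control polysome RNA.

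**Figure D2:**
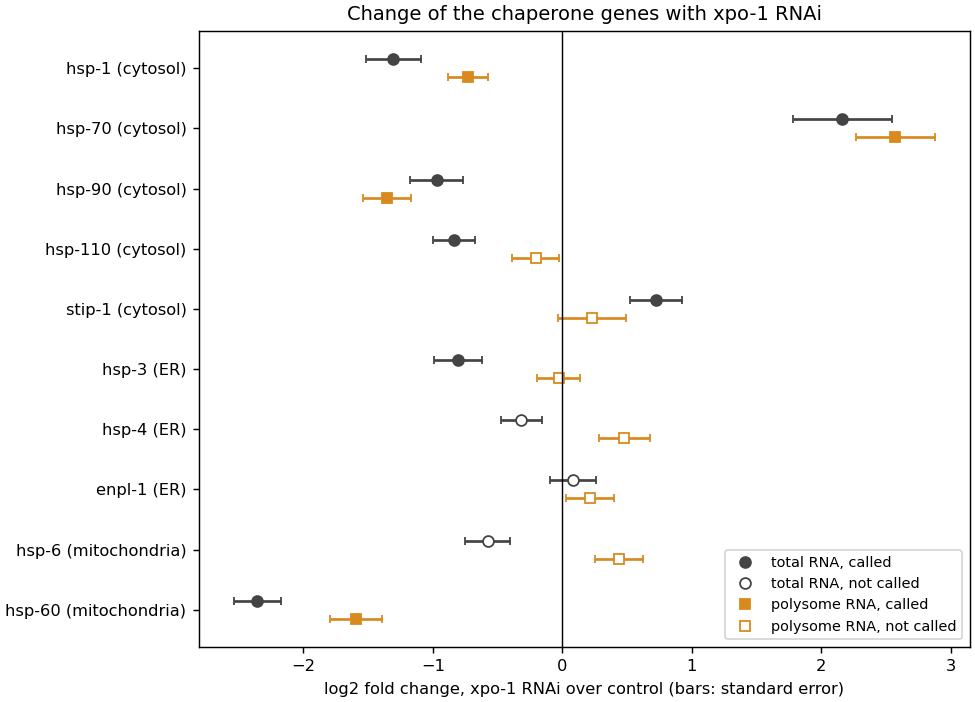
Log2 fold change, xpo-1 RNAi over control, of each chaperone gene (horizontal axis) in total RNA (grey circles) and polysome RNA (orange squares), with its standard error. Filled symbols are called and open ones are not. hsp-60 lay farthest to the left in both RNA kinds, at -2.36 and -1.60, and hsp-70 farthest to the right, at 2.16 and 2.57.

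A gene beside hsp-60 was also lower with xpo-1 RNAi. Y22D7AL.10, annotated nearby on the opposite strand (chromosome III, 1617151 to 1618954, minus strand), is the worm ortholog of Hsp10, the lid of the Hsp60 barrel. The genes point away from each other with 787 bases between them and no other counted gene reaching into that gap. Y22D7AL.10 had 116 and 96.3 CPM in xpo-1 RNAi total RNA against 401 and 469 CPM in control total RNA, a 4.16-fold lower level (log2 fold change -2.06 ± 0.19, edgeR adjusted p = 0.000108). In polysome RNA it had 139 and 157 CPM with xpo-1 RNAi against 821 and 999 CPM in control. That was a 6.46-fold lower level (-2.69 ± 0.20, edgeR adjusted p = 0.000151). The estimate was thus farther from 0 in polysome RNA, whereas that of hsp-60 was farther from 0 in total RNA (-2.36 against -1.60). In control worms Y22D7AL.10 was higher in polysome than in total RNA (1.06 ± 0.18, edgeR adjusted p = 0.00280). hsp-60 differed there by -0.39. In the single xpo-1 RNAi monosome library Y22D7AL.10 had 126 CPM and hsp-60 had 104 CPM, against 172 and 173 CPM, and 165 and 186 CPM, in control monosome RNA.

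**Figure D3:**
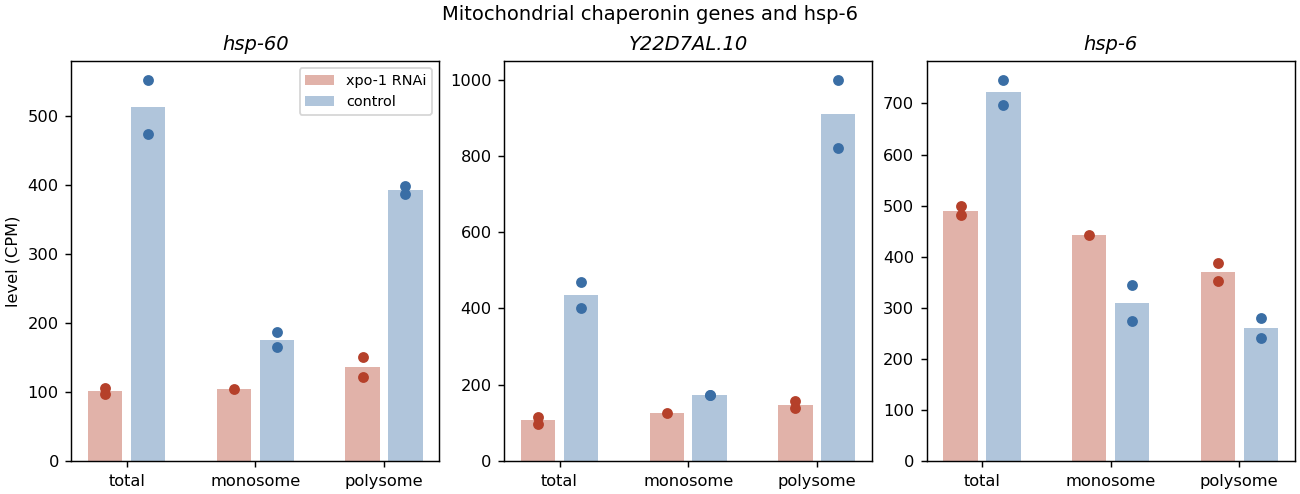
Level in CPM (vertical axes, from 0) of hsp-60, of its neighbour Y22D7AL.10 and of hsp-6 in total, monosome and polysome RNA. Bars are group means and points are libraries, red for xpo-1 RNAi and blue for control. Y22D7AL.10 and hsp-60 were lower with xpo-1 RNAi in total and polysome RNA, whereas hsp-6 in polysome RNA was at 352 and 387 CPM with xpo-1 RNAi against 279.6 and 240.2 CPM in control.

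In polysome RNA, 4 of the 10 genes were called, hsp-70 higher and hsp-1, hsp-90 and hsp-60 lower. Of all 13940 genes tested there, 37.9% were called, 15.5% higher and 22.4% lower. The median log2 fold change of the 10 genes was 0.09, beside -0.01 for all genes tested. The scaling of the libraries bore on these counts. Scaling to total counts alone put the all-gene median at 0.30 in total RNA and at 0.40 in polysome RNA. With it hsp-4, enpl-1 and hsp-6 were called higher in polysome RNA. hsp-1 lost its call there, and the differences of hsp-110 and hsp-3 turned positive. Of all genes, 48.1% were then called in polysome RNA, 4503 higher and 2209 lower. The same scaling ended the calls of hsp-110 and hsp-3 in total RNA, leaving 2 genes higher and 3 lower. Beside them, 35.9% of all genes were called, 3305 higher and 1647 lower. hsp-70, hsp-90 and hsp-60 kept their calls in both RNA kinds.

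Whether the change differed between polysome RNA and total RNA was tested as an interaction, which subtracts the log2 fold change of total RNA from the one of polysome RNA. The study reported that monosome and polysome peaks were flatter with xpo-1 silencing. Levels here are scaled within each library, so the interaction compares relative levels. A positive value does not by itself mean more transcript on polysomes. For 8 of the 10 genes the value was positive, so that the estimates lay higher in polysome RNA. It was 1.06 ± 0.23 for hsp-6, 0.84 ± 0.23 for hsp-4, 0.82 ± 0.23 for hsp-3, 0.80 ± 0.24 for hsp-60, 0.68 ± 0.22 for hsp-110, 0.62 ± 0.23 for hsp-1, 0.46 ± 0.46 for hsp-70 and 0.18 ± 0.24 for enpl-1. hsp-90 (-0.34 ± 0.25) and stip-1 (-0.45 ± 0.36) had negative values. edgeR called 0 of the 10 genes and 0 (0%) of all 14900 genes tested, and hsp-6 shared the smallest adjusted p of any gene, 0.0972, with other genes. That fit took the libraries as independent, although the RNA kinds came from shared lysates that the labels do not match up. With a block for the replicate number edgeR called 3 (hsp-4, hsp-6 and hsp-60), beside 13.2% of all genes. Crossing the xpo-1 RNAi numbers, a choice made after seeing the data, gave 6, beside 20.04%. At an unadjusted p under 0.05 were 6 of the 10 genes, beside 16.1% of all genes tested. DESeq2 called 4 of the 10 genes (hsp-6, hsp-4, hsp-3 and hsp-60). Over all genes it called 297 higher and 393 lower, which is 4.63% of the 14900 fitted. Only 6234 of these received an adjusted p from DESeq2, so the share among genes it could call was larger. edgeR called 1 (hsp-6) with no count filter, beside 2.53% of all genes, 2 (hsp-6 and hsp-4) when every library needed 10 counts, beside 3.77%, and 1 (hsp-6) without control polysome replicate 1, beside 4.87%.

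Coding length moved with this measure. The 10 genes have coding sequences of 1704 to 2490 nucleotides. Over the 1775 genes tested with coding lengths between 1700 and 2500 nucleotides the median interaction was 0.28, with quartiles at -0.09 and 0.63, whereas over all genes tested it was 0.02 and over the chaperone genes 0.65. The part of length in the chaperone values was not tested. hsp-6, hsp-4, hsp-3, hsp-60 and hsp-110 lay above the upper quartile of the genes of like length, and hsp-90 and stip-1 below the lower one.

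**Figure D4:**
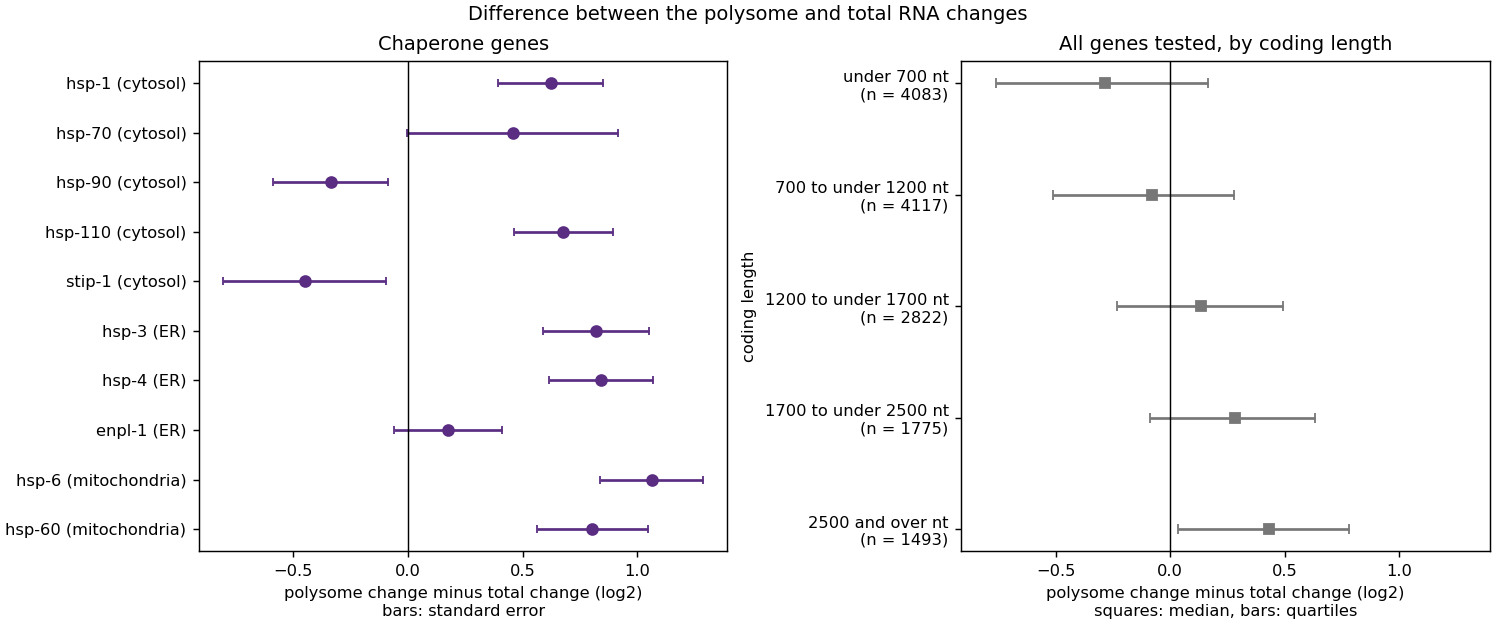
Change in polysome RNA minus change in total RNA (horizontal axes, log2). On the left, each point is a chaperone gene with its standard error. On the right, squares are medians and bars quartiles of all genes tested, grouped by coding length. The medians run from -0.28 for genes under 700 nucleotides to 0.43 for those of 2500 nucleotides and over, and hsp-6 stands highest among the chaperone genes at 1.06.

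Within each kind of worm, the polysome RNA was compared with the total RNA. In xpo-1 RNAi worms hsp-3 and hsp-70 were higher in polysome RNA than in total RNA and hsp-90 was lower, so 3 of the 10 genes were called, beside 32.1% of all genes tested (14.6% higher and 17.6% lower). The log2 difference was 0.73 ± 0.17 for hsp-3 (edgeR adjusted p = 0.00888), 0.88 ± 0.29 for hsp-70 (edgeR adjusted p = 0.0427) and -0.68 ± 0.18 for hsp-90 (edgeR adjusted p = 0.0170). Only hsp-3 was called without xpo-1 RNAi total replicate 1 or polysome replicate 1, and only hsp-90 without xpo-1 RNAi polysome replicate 2. Without xpo-1 RNAi total replicate 2, hsp-90 was lost. In control worms 3 other genes were called, all lower in polysome RNA than in total RNA, beside 29.8% of all genes tested (12.6% higher and 17.2% lower). These were hsp-6 (-1.48 ± 0.16, edgeR adjusted p = 0.000563), hsp-1 (-1.06 ± 0.16, edgeR adjusted p = 0.00172) and hsp-4 (-0.79 ± 0.16, edgeR adjusted p = 0.00538). hsp-60, which fell most in total RNA after xpo-1 RNAi, differed between control polysome and total RNA by -0.39 ± 0.17 and did not pass (edgeR adjusted p = 0.113).

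Against monosome RNA, control polysome RNA was richer in hsp-60 (1.08 ± 0.27, edgeR adjusted p = 0.0193) and hsp-3 (0.78 ± 0.26, edgeR adjusted p = 0.0491), so 2 of the 10 genes were called, beside 33.0% of all genes tested (14.7% higher and 18.3% lower). Both calls were lost without control monosome replicate 1 or control polysome replicate 2, and that of hsp-3 also without either of the others. stip-1 had the lowest value of the 10 genes, at 37.2 and 27.5 CPM in control polysome RNA against 50.9 and 64.4 CPM in control monosome RNA. The difference did not pass (-0.92 ± 0.31, edgeR adjusted p = 0.0534), though DESeq2 called it lower. Against total RNA stip-1 went the other way, with 24.9 and 19.4 CPM in control total RNA, a difference that was not called either.

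Monosome RNA of xpo-1 RNAi worms came from 1 library, so it was not tested. hsp-70 had 3.91 CPM there against 1.18 and 1.42 CPM in control monosome RNA, and it was the only gene of the set beyond 2-fold, as were 9.08% of all genes upward and 15% downward. hsp-1, at 1687 CPM with xpo-1 RNAi, lay between the 1767 and 1410 CPM of control monosome RNA. hsp-6 had 443 CPM with xpo-1 RNAi against 344 and 275 CPM in control, hsp-3 had 489.5 CPM against 383 and 359 CPM, and enpl-1 had 336 CPM against 263 and 205 CPM. These 3 genes exceeded both control libraries, while hsp-90 (1812 CPM against 2236 and 2017 CPM) lay below both.

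Translation efficiency was taken as the ratio of polysome to monosome RNA in xpo-1 RNAi divided by that ratio in control, and again was not tested. Its log2 value was lowest for hsp-90, at -1.14, then -0.86 for hsp-60, -0.83 for hsp-1, -0.44 for hsp-3, -0.32 for enpl-1, -0.21 for hsp-110 and -0.09 for hsp-6. It was 0.14 for stip-1, 0.55 for hsp-4 and 0.96 for hsp-70. Only hsp-90 passed 2-fold, as 15.8% of all genes did downward and 8% upward, and without xpo-1 RNAi polysome replicate 1 its value was -0.95. Without control monosome replicate 1, hsp-1 (-1.04) and hsp-70 (1.06) passed it too, and without xpo-1 RNAi polysome replicate 2 hsp-60 did (-1.05). hsp-70 was also past it without xpo-1 RNAi polysome replicate 1 or control polysome replicate 2. Scaled to total counts alone, the values were -0.36 for hsp-90, -0.06 for hsp-60 and -0.05 for hsp-1, and only hsp-70 (1.75) and hsp-4 (1.33) passed 2-fold. That scaling turned the values of hsp-3 (0.35), enpl-1 (0.46), hsp-110 (0.58) and hsp-6 (0.69) positive.

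Across the 11 libraries the chaperone genes followed each other only in part. The Pearson correlation of log2 levels was 0.87 between hsp-110 and hsp-60 and 0.86 between hsp-1 and hsp-90, and it was -0.86 between hsp-70 and hsp-90. Partners in 1 compartment could be far apart, with 0.13 for hsp-6 and hsp-60 and 0.32 for hsp-3 and hsp-4, while hsp-4 and hsp-6 reached 0.82. Among 7312 genes with a mean of at least 10 CPM, those most like hsp-1 were T07D3.9 (0.955), mdt-21 (0.929) and gtbp-1 (0.909). Those most like hsp-4 were hxk-3, moc-1 and C37H5.13 (0.888, 0.879 and 0.876), and those most like hsp-6 were K02F3.2, rsr-2 and Y38E10A.22 (0.909, 0.900 and 0.888). The libraries share lysates and groups, so these values describe the libraries only.

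Other folding genes of the same compartments were read from fixed lists. The cytosolic chaperonin CCT and its partner prefoldin, which fold actin and tubulin, had no gene called higher. Of their 14 genes 7 were lower and 0 higher in total RNA with xpo-1 RNAi (median log2 fold change -0.63), and all 14 were lower in polysome RNA (median -1.08), beside 16.9% and 22.4% lower among all genes. In total RNA the largest falls were those of cct-8 (-1.04 ± 0.16, edgeR adjusted p = 0.00137) and cct-3 (-1.03 ± 0.17, edgeR adjusted p = 0.00195), with 179 and 188 CPM for cct-8 in xpo-1 RNAi total RNA against 379.7 and 363 CPM in control total RNA. In polysome RNA they were those of pfd-5 (-1.86 ± 0.22, edgeR adjusted p = 0.000585) and pfd-1 (-1.41 ± 0.22, edgeR adjusted p = 0.00178), prefoldin subunits whose levels in total RNA were not called. Prefoldin subunits are small proteins, and in polysome RNA the median of genes with coding lengths under 700 nucleotides was -0.48. Other named genes that fell there differ in length. daf-41 (525 nucleotides), Y22D7AL.10 (324) and tomm-22 (327) are short, whereas ahsa-1 (1026), pdi-2 (1479) and pdi-6 (1320) are longer. Likewise lower there were cct-3 (1629), cct-5 (1626) and cct-8 (1644), from the class of 1200 to under 1700 nucleotides, whose median was 0.12. Of the named genes higher there, pek-1 (3231) and uggt-1 (4479) belong to the class of 2500 nucleotides and over, whose median was 0.51. xbp-1, also higher, has only 861. The part of length in these changes was not tested. The number of these 14 genes called changed in both RNA kinds as single libraries were left out, and so did the share of all genes called. Scaled to total counts alone, 8 of the 14 genes were called in polysome RNA and 4 in total RNA, all lower. Among all genes, 2209 of 13940 and 1647 of 13795 were then lower.

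A list of 20 other cytosolic Hsp70 genes, co-chaperones and HSF-1 regulators had 18 genes tested in total RNA. Only 1 was called, beside 28.9% of all genes. It was daf-41, the p23 co-chaperone of Hsp90, which was lower (-0.65 ± 0.19, edgeR adjusted p = 0.0237). That call was lost without control replicate 1, without xpo-1 RNAi replicate 2 and with total counts alone. In polysome RNA 5 were higher and 6 lower of 20 tested, beside 15.5% and 22.4% of all genes. These counts depended on single libraries, as did the share of all genes called. daf-41 (-1.80 ± 0.16, edgeR adjusted p = 0.000235) and ahsa-1, the Aha1 activator of Hsp90 (-1.51 ± 0.18, edgeR adjusted p = 0.000672), fell most, with ahsa-1 at 175 and 187 CPM in xpo-1 RNAi polysome RNA against 468 and 511 CPM in control polysome RNA. The 2 highest were F44E5.4 and F44E5.5, a close pair of inducible Hsp70 genes. F44E5.4 had 20 and 30 counts in xpo-1 RNAi polysome RNA against 4 and 3 counts in control polysome RNA (edgeR adjusted p = 0.00899), and F44E5.5 had 26 and 35 counts against 6 and 0 counts (edgeR adjusted p = 0.0196). These near-identical genes may share reads, and with so few counts no fold change is given. The other 3 that were higher were unc-23, unc-45 and hsf-1. hsf-1, the heat-shock transcription factor, had 68.0 and 58.9 CPM in xpo-1 RNAi polysome RNA against 40.1 and 26.6 CPM in control polysome RNA (0.86 ± 0.24, edgeR adjusted p = 0.0231), a call lost without control polysome replicate 2 or either xpo-1 RNAi library.

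The ER list had 19 genes tested, of which 3 were called in total RNA, beside 28.9% of all genes. In total RNA pek-1, the PERK kinase of the ER stress response, was higher (1.33 ± 0.24, edgeR adjusted p = 0.00305), while the protein disulfide isomerases pdi-2 (-0.99 ± 0.23, edgeR adjusted p = 0.00960) and pdi-6 (-0.70 ± 0.17, edgeR adjusted p = 0.0122) were lower. Without xpo-1 RNAi total replicate 2 none of these 3 passed, and pdi-2 also needed control replicate 2 and pdi-6 xpo-1 RNAi replicate 1. In polysome RNA 3 were higher (pek-1, xbp-1 and uggt-1) and 2 lower (pdi-2 and pdi-6), beside 15.5% higher and 22.4% lower among all genes. xbp-1, the transcription factor that drives hsp-4, had 313 and 307 CPM in xpo-1 RNAi polysome RNA against 174 and 161 CPM in control polysome RNA (0.82 ± 0.18, edgeR adjusted p = 0.00846), a call lost without either xpo-1 RNAi library. Its splicing was not measured here. As single libraries were left out, the number of ER genes called changed in both RNA kinds, and so did the share of all genes called. Scaling to total counts alone gave 10 higher and 0 lower in polysome RNA. Beside them, 4503 of all 13940 genes tested were higher and 2209 lower.

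Of the 17 mitochondrial folding, import and proteolysis genes, 3 were lower and 0 higher in total RNA, beside 16.9% lower among all genes, and 7 were lower and 1 higher in polysome RNA, beside 22.4% lower and 15.5% higher among all genes. Beside Y22D7AL.10, tomm-22, a receptor subunit of the outer membrane import channel, fell most, by 1.02 ± 0.18 in total RNA (edgeR adjusted p = 0.00249) and by 2.10 ± 0.25 in polysome RNA (edgeR adjusted p = 0.000589) on the log2 scale. The higher one was ymel-1, an inner membrane protease, with 65.6 and 48.5 CPM in xpo-1 RNAi polysome RNA against 22.8 and 22.2 CPM in control polysome RNA (1.27 ± 0.22, edgeR adjusted p = 0.00289). The call of ymel-1 was lost without xpo-1 RNAi polysome replicate 1 (adjusted p = 0.0504) and that of tomm-22 in total RNA without xpo-1 RNAi replicate 2 (adjusted p = 0.0542). The number of these mitochondrial genes called also depended on single libraries in both RNA kinds, as did the share of all genes called.

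**Figure D5:**
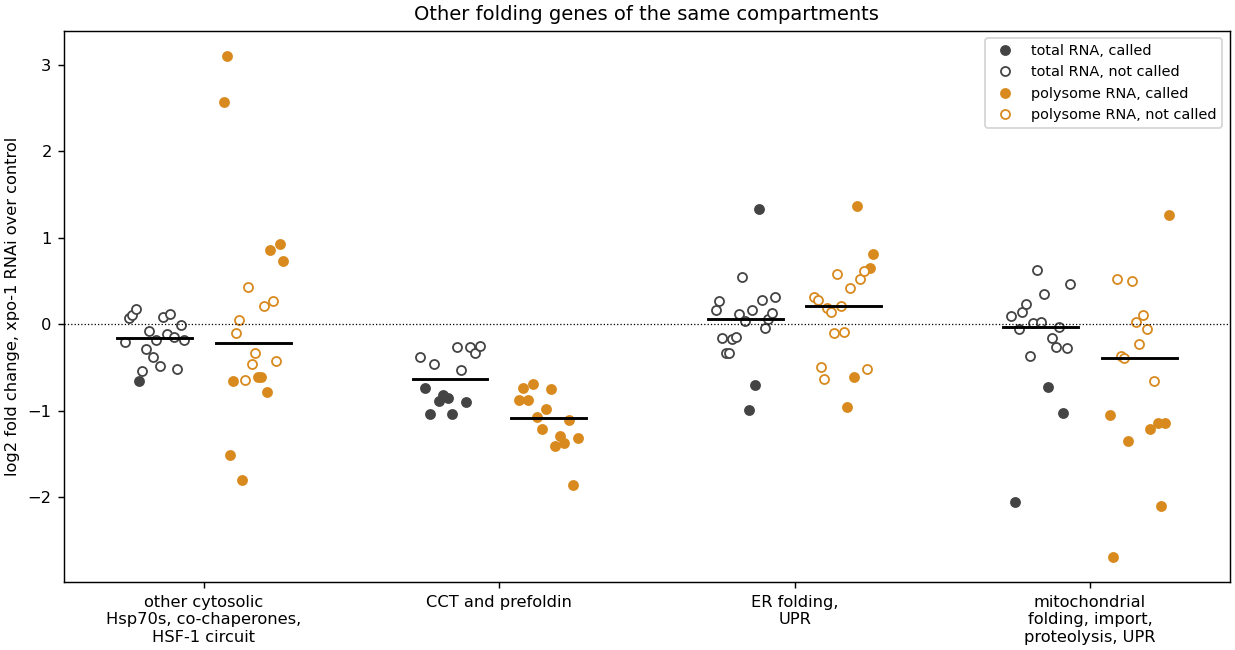
Log2 fold change, xpo-1 RNAi over control (vertical axis), of the genes of 4 other folding lists in total RNA (grey) and polysome RNA (orange). Every circle is a gene, filled where called, and each black line is the median of its list. The median of the 14 CCT and prefoldin genes was -0.63 in total RNA and -1.08 in polysome RNA.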

How the data were processed

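Raw counts per gene, whole numbers for 46756 genes over all exons, were deposited by the authors for 11 libraries. The tools named in their processing notes are Trimmomatic, STAR and featureCounts of Subread on WBcel235, and versions and strand use are not given in the sources used here. hsp-90, stip-1 and enpl-1 overlap another gene by 4, 21 and 23 exon bases, so reads there may belong to either gene. Tables of normalized values deposited beside the counts were not used.

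Each comparison was fitted in edgeR 4.0.16 under R 4.3.3 (quasi-likelihood F test, TMM scaling) and adjusted by Benjamini-Hochberg over every gene that reached 10 counts in 2 or more fitted libraries, using the libraries of 1 RNA kind, or the 8 total and polysome libraries for the interaction and for polysome against total RNA. Polysome against monosome RNA used the 4 control libraries. DESeq2 1.42.0, which the study's methods name, served as an alternative. The scripts were tested on simulated data. Standard errors are the log2 fold change over the square root of F. Displayed CPM use TMM factors over all 11 libraries. For translation efficiency, size factors were set separately in monosome and polysome RNA and 1 was added to each value. No replicate pair was as alike as sampling noise would allow (chi-square 12.9 to 56.3 times its degrees of freedom), and p-values measure only the spread between these libraries. Wilson intervals cover counting error only.

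All 10 chaperone genes passed the filter in each fit. From each other list up to 2 genes per direction were named, those with the largest fold among called genes whose groups do not overlap, and other genes named were chosen after their values were seen. Members, lists and tests were chosen with earlier results of these data known.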

Additional observations from a re-analysis of the deposited data

How the results depend on the processing

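With 2 libraries a group and 1 for xpo-1 RNAi monosome RNA, single libraries decide several counts. Leaving out each library in turn gave 4 to 8 chaperone genes called in total RNA, 3 to 4 in polysome RNA, 0 to 1 for the interaction, 3 in each fit for control polysome against total RNA, 1 to 3 for xpo-1 RNAi polysome against total RNA, 0 to 2 for control polysome against monosome RNA and 1 to 3 beyond 2-fold in translation efficiency.

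For the interaction, DESeq2 called 4 genes, no count filter gave 1 and 10 counts in every library gave 2. These stood beside 4.63%, 2.53% and 3.77% of all genes. Median-of-ratios scaling left 1 gene for control polysome against monosome RNA, beside 33.1% of all genes. Total counts alone put 2 genes beyond 2-fold in translation efficiency. The cause of these shifts was not tested.

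Replicate numbers in the labels were not taken as pairs, since the labels do not say whether a number marks a shared lysate. The correlation of same-numbered deviations was 0.78 between control polysome and total RNA, 0.48 between control monosome and total RNA and 0.42 between control polysome and monosome RNA. It was -0.46 between xpo-1 RNAi polysome and total RNA. Between treatments, which shared no lysate, it was 0.05 for total RNA and 0.14 for polysome RNA. The main fits took the libraries as independent, although the RNA kinds came from shared lysates. With the replicate block, 7 chaperone genes were called in total RNA (33.7% of all genes), 4 in polysome RNA (43.6%), 3 for the interaction (hsp-4, hsp-6 and hsp-60, beside 13.2%), 2 for xpo-1 RNAi (44.8%) and 3 for control (46.1%) polysome against total RNA, and 3 for control polysome against monosome RNA (56.7%). Crossing the xpo-1 RNAi numbers in the block, an alternative added after seeing the data, gave 6 for the interaction (20.04%).

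Signs turned only for differences that were not called. In total RNA enpl-1 ranged from -0.073 to 0.22 as libraries were left out. In polysome RNA, total counts alone gave 0.20 for hsp-110 and 0.38 for hsp-3, a fit over all 11 libraries gave 0.041 for hsp-3, and leaving out libraries gave -0.097 to 0.053 for hsp-3 and -0.10 to 0.53 for stip-1. The interaction of hsp-90 ranged from -0.53 to 0.089. For control polysome against total RNA, hsp-3 was 0.051 with total counts alone and ranged from -0.24 to 0.078. For xpo-1 RNAi polysome against total RNA, enpl-1 ranged from -0.26 to 0.034, stip-1 from -0.13 to 0.39 and hsp-4 from -0.061 to 0.30. For control polysome against monosome RNA, enpl-1 was 0.014 with no count filter and 0.072 in the fit over all 11 libraries, and without single libraries enpl-1 ranged from -0.22 to 0.32 and hsp-4 from -0.49 to 0.12.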
